A study of Mus musculus with 3 samples.

Results

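The alpha- and beta-globin genes encode the protein chains of haemoglobin, the oxygen carrier of red blood cells. They were followed through the transcriptomes of wild-type, tw18/+ and tw18/tw18 mouse embryos. The members were chosen by symbol: Hba-a1, Hba-a2 and Hba-x of the alpha cluster, and Hbb-bs, Hbb-bt, Hbb-b1, Hbb-b2, Hbb-y and Hbb-bh1 of the beta cluster. Of these 9 symbols, 8 were in the deposited table of 23421 genes, and Hbb-bt was not. Values are given for each copy and for the sums over the alpha copies, the beta copies and all copies.

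The tw18 lethal is a deletion that includes Ppp2r1a, which encodes the scaffold subunit of protein phosphatase PP2A, and the study asked how its loss changes the early embryo. All 3 libraries came from matings of tw18/+ mice at embryonic day 6.5. Among embryos of this day that it stained, the study describes the mutants as slightly younger. A difference in stage cannot be told apart from genotype in these libraries. The labels give the strain as 129/SvEv, while the study describes its tw18 embryos as differing in a background that was not inbred, and which adult beta genes the embryos carried is not given in the sources used here. By genotype, the tw18/+ library carried 1 deleted copy and the tw18/tw18 library 2. The labels call the tissue epiblast, whereas the study's text describes the embryo proper, meaning the epiblast with the visceral endoderm around it. There was 1 library of total RNA per genotype, and the number of embryos behind each is not given in the sources used here. No difference between genotypes therefore has a replicate check, and no p-value is given.

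Haemoglobin is built from pairs of alpha-type and beta-type chains, each with a haem group that holds iron. In the mouse, the first red cells arise in the blood islands of the yolk sac after gastrulation has begun, and these primitive cells use the embryonic genes Hba-x, Hbb-y and Hbb-bh1 together with the adult alpha genes. Definitive red cells, which in the adult come from the bone marrow, use the adult genes Hba-a1 and Hba-a2 with the adult beta genes. Mouse strains differ in their adult beta genes: a pair called Hbb-bs and Hbb-bt is found in the reference strain, and a pair called Hbb-b1 and Hbb-b2 in others.

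The alpha cluster lies on Chr 11 of GRCm38 on the forward strand, with Hba-x at 32276400 to 32278116, Hba-a1 at 32283511 to 32284465 and Hba-a2 at 32296489 to 32297298. The beta cluster lies on the reverse strand of Chr 7, with Hbb-bt at 103812524 to 103813996, Hbb-bs at 103826534 to 103828096, Hbb-bh1 at 103841637 to 103843164 and Hbb-y at 103851749 to 103853216. Each of these genes has 3 exons. RefSeq places Hbb-b1 and Hbb-b2 on a separate sequence outside this cluster, and the locus to which the authors' annotation gave these 2 symbols is not given in the sources used here.

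The coding sequences of Hba-a1 and Hba-a2 differ at 1 of 429 bases, C381T, counted from 1 at the A of the start codon with the Hba-a1 base first. Those of Hbb-bs and Hbb-bt differ at 1 of 444 bases, C417T, with the Hbb-bs base first. Neither difference changes the amino acid, since the codons are GAC and GAT in the alpha pair and GCC and GCT in the beta pair. The windows around both differences, from the GRCm38 transcripts in GENCODE M21, are shown because they carry the coding bases that could tell the copies apart, and the capital marks the base that differs.
Hba-a1: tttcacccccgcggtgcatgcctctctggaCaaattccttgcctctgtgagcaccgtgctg
Hba-a2: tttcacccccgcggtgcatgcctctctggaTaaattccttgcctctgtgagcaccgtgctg
Hbb-bs: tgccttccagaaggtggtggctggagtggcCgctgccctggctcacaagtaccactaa
Hbb-bt: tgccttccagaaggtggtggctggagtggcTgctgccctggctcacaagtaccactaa

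Reads of 50 bp were used, and of all 50 bp words in the Hba-a1 transcript 67.5% also occur in Hba-a2, while 86.9% of those in Hba-a2 occur in Hba-a1. Between Hbb-bs and Hbb-bt these shares were 65.8% and 58.3%. The sequences of Hbb-b1 and Hbb-b2 were not compared, so the sharing among the beta copies in the table was not measured. The embryonic genes shared no word of this length with the adult copy compared, and their coding identity to it was 64.9% for Hba-x with Hba-a1, 74.3% for Hbb-y with Hbb-bs and 74.6% for Hbb-bh1 with Hbb-bs. The alpha pseudogenes Hba-ps3 and Hba-ps4, the latter on Chr 17, shared no such word with the adult alpha genes and were not in the table. A fragment from the shared part of a pair can be assigned to either copy, so the division between copies is uncertain, and the sums are the main values.

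The 2 adult alpha copies were divided in opposite ways in wild-type and tw18/tw18 embryos. Hba-a1 stood at 52.2 FPKM in wild type, 27.1 in tw18/+ and 0.00700 in tw18/tw18, where FPKM is the number of fragments scaled to the length of the transcript, in kilobases, and to the fragments mapped in the library. Hba-a2 stood at 0.0201 FPKM in wild type, 26.9 in tw18/+ and 127 in tw18/tw18. Hba-a1 thus held 99.96% of the alpha sum in wild type, 50.2% in tw18/+ and 0.00551% in tw18/tw18.

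The lowest of these values lay far below what 1 fragment is worth, which was estimated from the spacing of low FPKM values. One fragment would have given Hba-a2 an FPKM of 0.153 in wild type and Hba-a1 an FPKM of 0.0826 in tw18/tw18, so that the listed values stood for an estimated 0.13 and 0.085 fragments. Cufflinks divides fragments that map to several transcripts among them by estimated probabilities. The comparison set was protein-coding genes with 1 annotated transcript, longer than those of the globins. The worth of 1 fragment was estimated from the same set. In it, values under 0.5 of a fragment were found in 0 of 1249 genes above 0 in wild type, 3 of 1437 in tw18/+ and 2 of 1435 in tw18/tw18. The log2 ratios of tw18/tw18 to wild type, -12.86 for Hba-a1 and 12.63 for Hba-a2, rest on these values and are no measure of the size of a change.

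Summed over the copies, the alpha-globin FPKM was 52.2 in wild type, 54.0 in tw18/+ and 127 in tw18/tw18. The 95% intervals, exact Poisson intervals that cover counting error only, were 47.5 to 57.3, 49.7 to 58.6 and 120 to 135. The sum was 2.43-fold higher in tw18/tw18 than in wild type, a log2 ratio of 1.28 with a counting interval of 1.12 to 1.44. Between tw18/+ and wild type the log2 ratio was 0.05, and its counting interval of -0.13 to 0.23 included no difference. Against tw18/+ the tw18/tw18 library was higher by a log2 ratio of 1.24. These values can depend on the copy to which the fragments were assigned, since the GENCODE M21 transcript of Hba-a1 is 699 bp long and that of Hba-a2 554 bp. The lengths that the authors used are not given in the sources used here, so the values that follow hold only for these lengths. With the length of Hba-a1 for both copies, a choice made after seeing the data, the alpha sum was 52.2 in wild type, 47.5 in tw18/+ and 96.3 in tw18/tw18. The tw18/tw18 library was then 1.84-fold above wild type, a log2 ratio of 0.88 with a counting interval of 0.72 to 1.04, and thus no longer past the 2-fold limit. For tw18/+ the log2 ratio to wild type was then -0.14, with an interval of -0.32 to 0.04. The tw18/tw18 library stood above the others with either length, whereas tw18/+ and wild type could not be told apart in this sum at this depth.

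Of the adult beta genes, Hbb-b1 stood at 53.8 FPKM in wild type, 62.2 in tw18/+ and 104 in tw18/tw18. Hbb-b2 stood at 27.1 FPKM in wild type, 35.2 in tw18/+ and 83.6 in tw18/tw18. Hbb-bs stood at 0.0180 FPKM in wild type, 0.555 in tw18/+ and 47.6 in tw18/tw18. All 3 copies were highest in tw18/tw18, where Hbb-bs was well above the level of 1 fragment. In wild type its value stood for an estimated 0.137 fragments, and in tw18/+ for 5.95.

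The share of Hbb-bs in the beta sum was 0.0222% in wild type, 0.566% in tw18/+ and 20.2% in tw18/tw18. The share of Hbb-b1 was 66.5%, 63.5% and 44.2% in the same order, and that of Hbb-b2 was 33.5%, 35.9% and 35.6%. Between tw18/tw18 and wild type the log2 ratios were 0.95 for Hbb-b1 and 1.62 for Hbb-b2, and between tw18/+ and wild type they were 0.21 and 0.38. The ratio of Hbb-b1 to Hbb-b2 was 1.98 in wild type, 1.77 in tw18/+ and 1.24 in tw18/tw18.

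The beta-globin sum was 81.0 FPKM in wild type, 98.0 in tw18/+ and 235 in tw18/tw18, with counting intervals of 74.7 to 87.6, 92.2 to 104 and 226 to 244. These use the transcript length of Hbb-bs for all beta copies. The sum was 2.90-fold higher in tw18/tw18 than in wild type, a log2 ratio of 1.54 with a counting interval of 1.41 to 1.67. In tw18/+ it was higher than in wild type by a log2 ratio of 0.28, with an interval of 0.13 to 0.42. The latter interval lay above no difference, but it treats the estimated fragments as independent counts. With 1 library per genotype the difference cannot be set against the spread between embryos. Without Hbb-bs, a choice made after seeing the data, the log2 ratio of tw18/tw18 to wild type was 1.21.

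**Figure D1:**
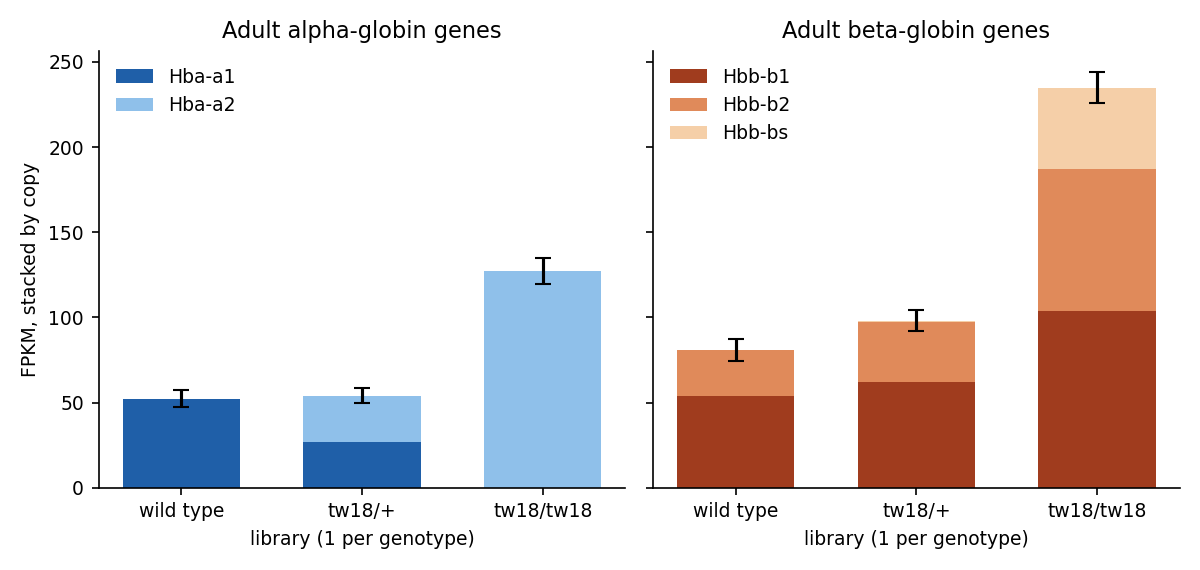
FPKM of each adult globin copy and of the alpha and beta sums in wild-type, tw18/+ and tw18/tw18 libraries, 1 library per genotype. The alpha sum was assigned to Hba-a1 in wild type and to Hba-a2 in tw18/tw18, a division that is uncertain because the copies share most of their sequence. Both sums were highest in tw18/tw18, at 127 and 235.

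Over all copies the globin sum was 133 FPKM in wild type, 152 in tw18/+ and 362 in tw18/tw18. This was 0.02999%, 0.0334% and 0.0944% of the FPKM total of each library. The log2 ratio of tw18/tw18 to wild type was 1.44, with a counting interval of 1.35 to 1.54. The sum of all copies was exceeded by 490 single genes in wild type, 431 in tw18/+ and 134 in tw18/tw18. The ratio of the alpha to the beta sum was 0.645 in wild type, 0.551 in tw18/+ and 0.541 in tw18/tw18. The beta change from wild type to tw18/tw18 exceeded the alpha change by 0.25 on the log2 scale, with a counting interval (normal approximation) of 0.05 to 0.46. With 1 length for both alpha copies the difference was 0.65, with an interval of 0.45 to 0.86, and the ratio of the alpha to the beta sum was 0.645, 0.484 and 0.410. With the GENCODE M21 lengths, the size of the difference thus rests on how the alpha fragments were divided. In a bulk sample, fewer cells of a type and less RNA per cell cannot be told apart.

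The embryonic genes Hba-x, Hbb-y and Hbb-bh1, the chains of primitive red cells, were listed at 0 in all 3 libraries. A count of 0 allows up to 3 fragments, which would have given Hba-x an FPKM of 0.297 in wild type, 0.211 in tw18/+ and 0.212 in tw18/tw18. For Hbb-y these limits were 0.391, 0.278 and 0.279, and for Hbb-bh1 0.406, 0.288 and 0.290. The adult sums lay far above these limits in each library, but a listed 0 can also be a failed estimate in a table of this kind. The other globins Hbq1a, Hbq1b and Hbb-bh2 and Mb, which encodes myoglobin, were also listed at 0 in all 3. Cygb, which encodes the widely expressed cytoglobin, stood at 0.186, 0.289 and 0.738 in wild type, tw18/+ and tw18/tw18. Ngb, which encodes the neuronal neuroglobin, had 0.403, 0.513 and 0.

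Promoters are shown for the adult alpha gene with the higher listed value in tw18/tw18 and for an embryonic gene listed at 0, as RefSeq gives them for GRCm38.p6, from 140 to 11 bases before the start. The window of Hba-a2 is chr11:32296352-32296481 on the forward strand and that of Hbb-y is chr7:103853218-103853347 on the reverse strand. Capitals mark any match to 4 motifs searched on both strands: the CCAAT box, the TATAA letters of the TATA box, the CACCC box that Klf1 and its relatives bind, and the GATAA core of sites for Gata1 and its relatives. The GATAA matches lie outside the windows shown, at -185 in Hba-a2 and -162 in Hbb-y. The Hbb-y window holds no TATAA.
Hba-a2: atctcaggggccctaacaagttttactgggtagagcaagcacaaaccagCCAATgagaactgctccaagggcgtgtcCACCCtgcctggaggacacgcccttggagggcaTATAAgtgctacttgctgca
Hbb-y: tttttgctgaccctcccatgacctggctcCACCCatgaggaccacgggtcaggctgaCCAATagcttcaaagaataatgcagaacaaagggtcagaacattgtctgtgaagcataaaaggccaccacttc

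RefSeq promoters were matched for 6 globin genes, Hba-x, Hba-a1, Hba-a2, Hbb-bt, Hbb-bs and Hbb-y. In the 250 bases before the start, CCAAT was found in 5 of the 6, the exception being Hba-x, and in 33.9% of all 32851 promoters. TATAA was found in 5 of the 6, the exception being Hbb-y, and in 22.8% of all promoters. CACCC was found in 6 of 6, against 52.0% of all promoters. The core GATAA was likewise found in 6 of 6, against 22.6%. In Hba-a2 the matches shown began at -91 for the CCAAT box, -63 for the CACCC box and -30 for the TATA box. The GATA core and the TATA letters differ in their first letter, so that the same letters on a strand cannot be both. A match is a description of the letters and not a binding site. The promoters of Hba-a1 and Hba-a2 were identical over 297 of 297 bases once shifted by 3.

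Of the 5 genes in the list of alpha-globin neighbours that passed a filter of FPKM 1, 1 was at least 2-fold higher in tw18/tw18 than in wild type and none was lower. Among all genes that passed this filter, 15.1% were higher and 6.94% lower. Nprl3, whose introns hold the main enhancers of the alpha cluster, stood at 5.82 FPKM in wild type, 4.59 in tw18/+ and 4.53 in tw18/tw18. Mpg, a DNA repair glycosylase gene, had 10.8, 9.15 and 6.75, and Snrnp25, a gene of the minor spliceosome, had 37.5, 33.7 and 22.6. Rhbdf1, which encodes an inactive rhomboid protein, was the gene counted as higher, with 2.24, 2.77 and 5.23. Il9r, an interleukin receptor gene, was listed at 0 in all 3. Polr3k, a subunit gene of RNA polymerase III that was put on the same list, lies on Chr 2 in the mouse and had 17.4, 16.5 and 12.8.

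**Figure D2:**
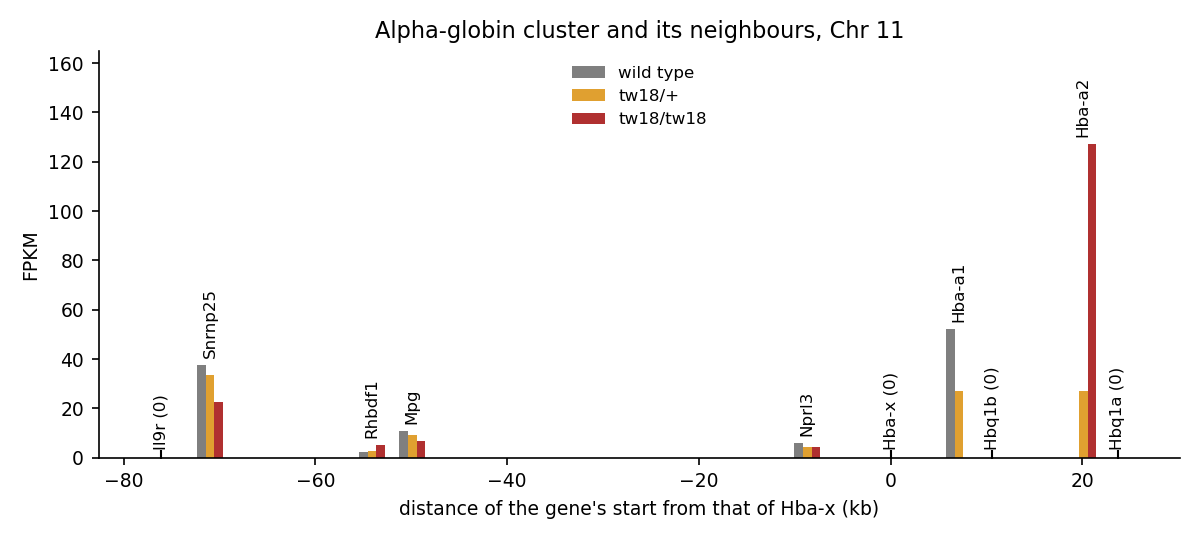
FPKM of the alpha-globin genes and their neighbours on Chr 11, placed by the distance of their start from that of Hba-x in kb, in wild type, tw18/+ and tw18/tw18; genes marked (0) were listed at 0 in all 3 libraries. In tw18/tw18 Hba-a2 reached 127, above every other gene drawn.

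To set the globin genes against all others, a gene was counted as changed where its higher library reached an FPKM of 1 and the difference was at least 2-fold, with no pseudocount. Between tw18/tw18 and wild type, 5 globin copies passed the filter, of which Hba-a2, Hbb-bs and Hbb-b2 were higher and Hba-a1 was lower in tw18/tw18. Of all 12917 genes that passed, 15.1% were higher and 6.94% lower, or 1946 and 896 genes. With the libraries rescaled to equal FPKM sums, this split was 2667 higher and 631 lower. Between tw18/+ and wild type, 4 copies passed and Hba-a2 alone was counted, as higher, against 4.7% of all genes higher and 5.02% lower. Between tw18/tw18 and tw18/+, the same 3 copies were higher and Hba-a1 lower, against 14.9% and 5.65% of all genes. Of the copies counted, only Hbb-b2 had more than 10 estimated fragments in each library, and the comparisons with wild type share that library.

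Genes that serve haemoglobin production or mark red cells were described by the same count. Of 55 genes in 4 lists, for haem synthesis, erythroid transcription factors, the red cell membrane and other erythroid functions, 54 were in the table, Ahsp was not, and 7 were listed at 0 in all 3 libraries. Of the 32 that passed the filter between tw18/tw18 and wild type, 5 were at least 2-fold higher, 4 lower and 23 neither. The share higher was 15.6%, against 15.1% of all genes, and the share lower was 12.5%, against 6.94%. Between tw18/+ and wild type 3 of 32 were higher, or 9.38% against 4.7% of all genes, and 1 was lower, or 3.12% against 5.02%.

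In haem synthesis, 1 of 9 genes was higher in tw18/tw18 and none lower, and the median difference of log2(FPKM + 1) was 0.14, against -0.01 over all genes tested. Alas2, which encodes the erythroid form of the first enzyme of the pathway, stood at 0.293 FPKM in wild type, 1.77 in tw18/+ and 2.16 in tw18/tw18. It was thus higher than in wild type in both libraries that carry the deletion.

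Of the erythroid transcription factors, 8 passed the filter, of which 3 were higher and 2 lower in tw18/tw18, with a median difference of 0.71. Gata1, a master regulator of red cell genes, stood at 0.914 FPKM in wild type, 1.04 in tw18/+ and 3.73 in tw18/tw18. Its cofactor gene Zfpm1 had 9.004, 4.52 and 19.3, and Lmo2, an adaptor of the same complex, had 1.37, 0.95 and 3.93. These 3 were highest in tw18/tw18. Lower there were Myb, needed for definitive blood formation, with 12.3, 11.8 and 4.95, and Bcl11a, a repressor of embryonic globin genes, with 7.32, 13.0 and 2.69. Klf1, the activator of adult beta-globin, was below 1 in each library, with 0, 0.135 and 0.306, as was Tal1 with 0.104, 0.424 and 0.389.

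Of the red cell membrane and surface genes, 8 passed the filter, of which 1 was higher and 2 lower, with a median difference of -0.50. Slc4a1, which encodes band 3, the anion exchanger of the red cell membrane, was listed at 0 in all 3 libraries. Epor, the erythropoietin receptor gene, had 2.26 in wild type, 1.70 in tw18/+ and 0.770 in tw18/tw18, and the blood group gene Rhd had 6.27, 2.60 and 0.413, so that both were lowest in tw18/tw18. Tfrc, the transferrin receptor by which cells take up iron, had 27.9, 28.5 and 14.9 and did not reach the 2-fold limit. None of the 7 other erythroid genes that passed the filter was higher or lower, and their median difference was -0.05. Car2, a carbonic anhydrase gene of this list that many tissues use and that is named after its values were seen, stood above both globin sums in wild type and tw18/+, with 130.8, 128.7 and 131.1.

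**Figure D3:**
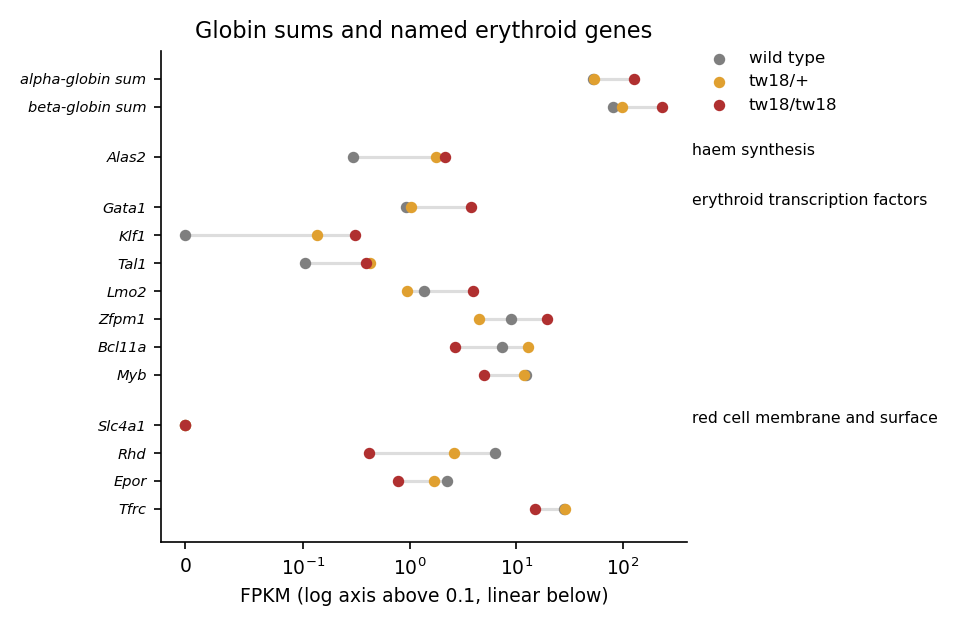
FPKM (log axis above 0.1, linear below) of the globin sums and of the genes named from the erythroid lists in wild type, tw18/+ and tw18/tw18. Alas2 and Gata1 were highest in tw18/tw18, Epor and Rhd were lowest there, and Slc4a1 lay at 0.

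Markers of other tissues differed between the libraries beside the globin sums, and their counts below stand against the 15.1% of all genes higher and 6.94% lower in tw18/tw18 than in wild type. Of the 14 genes for decidua and uterine stroma, the maternal tissue around the embryo, 10 were higher in tw18/tw18 than in wild type, 2 were lower, and none was listed at 0. Their median difference was 1.39. Their summed FPKM was 1794 in wild type, 341 in tw18/+ and 1035 in tw18/tw18, and it was led by Prl8a2, a decidual prolactin gene, with 1504, 155 and 377. Its relative Prl3c1 was lower in tw18/tw18 as well, with 121, 13.2 and 25.2. The stromal genes Col1a1, a collagen chain, with 35.9, 32.0 and 174, and Des, an intermediate filament of muscle, with 45.5, 65.9 and 201, were highest in tw18/tw18. The 2 prolactin genes were highest in wild type. Between tw18/+ and wild type, 0 of the 14 genes were higher and 3 were lower, against 4.7% and 5.02% of all genes.

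Of 12 endothelial genes, 7 were higher in tw18/tw18 than in wild type and none was lower, against 15.1% and 6.94% of all genes, with a median difference of 1.19. Their summed FPKM was 64.1 in wild type, 51.3 in tw18/+ and 135 in tw18/tw18. Pecam1, an adhesion protein of vessel walls, had 8.39, 3.23 and 14.9, Kdr, a receptor for vascular growth factor, had 1.44, 0.590 and 3.93, and Eng, a co-receptor on vessel cells, had 2.72, 2.51 and 15.6. Of 9 genes for blood and vessel progenitors 7 passed the filter, of which 3 were higher and 1 lower, and their summed FPKM was 27.2, 28.1 and 42.0.

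Of 16 leukocyte genes, 11 passed the filter, of which 4 were higher and 3 lower in tw18/tw18, against 15.1% and 6.94% of all genes, with a median difference of 0.50, and 2 of the 16 were listed at 0 in all libraries. Their summed FPKM was 31.8 in wild type, 32.6 in tw18/+ and 58.5 in tw18/tw18. The count of lower genes rested on low values. With a pseudocount of 1, 4 leukocyte genes were higher and 1 was lower. At an FPKM of at least 5, 3 were higher and 0 lower. Ptprc, the pan-leukocyte surface gene, was below 1 in each library with 0.248, 0.280 and 0.695, while Lyz2, a lysozyme of macrophages, had 3.77, 2.85 and 13.1. Of 8 platelet genes, 5 including the defining Pf4 were listed at 0 in all 3 libraries, and the summed FPKM was 0.775, 0.765 and 1.14. The part of maternal tissue, vessels or blood in the globin values was not tested.

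The markers of the labelled tissue were present in each library. The 10 epiblast genes had a summed FPKM of 2001 in wild type, 2113 in tw18/+ and 1052 in tw18/tw18, where 5 of 10 were lower, among them the pluripotency gene Pou5f1 with 628, 721 and 274. The 13 visceral endoderm genes summed to 1342, 1293 and 1743, none of them differing by 2-fold between tw18/tw18 and wild type. Afp, the alpha-fetoprotein gene, had 106, 110 and 59.5. The libraries labelled epiblast thus held visceral endoderm and decidual transcripts as well.

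**Figure D4:**
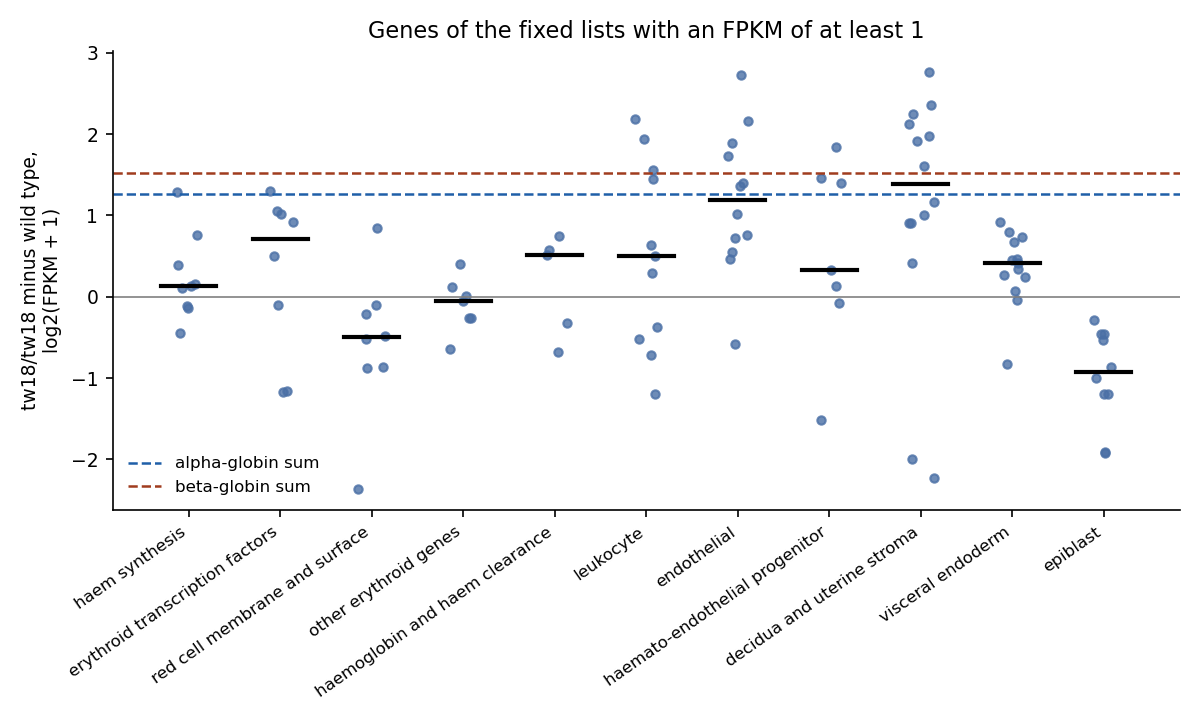
Difference of log2(FPKM + 1) between tw18/tw18 and wild type for the genes of each list that reached an FPKM of 1, with black bars at the medians and dashed lines at the alpha- and beta-globin sums. The erythroid lists scattered around 0, with medians from -0.50 to 0.71, whereas the medians of the endothelial and decidual lists were 1.19 and 1.39.

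The genes nearest in pattern to the total globin sum were found among the 11067 genes that reached an FPKM of 1 in every library, by the distance between their pairs of log2 ratios to wild type. They were Adamts9, Igfbp3, Stat3, Kif26a and Lrfn3, at distances of 0.00604 to 0.0581. Adamts9, a secreted protease gene, had 7.09, 8.13 and 19.3 FPKM, and Igfbp3, which encodes a binding protein of insulin-like growth factors, had 35.2, 39.9 and 96.5. With 3 libraries the pattern is 2 numbers, and 72 genes lay within a distance of 0.2. On the log2(FPKM + 1) scale 1 of the 5 remained among the nearest.

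One fragment on a transcript of 1 kb was worth an estimated FPKM of 0.0694 in wild type, 0.0493 in tw18/+ and 0.0495 in tw18/tw18, so that the latter libraries were 1.41 and 1.40 times as deep as wild type. Ppp2r1a stood at 146 FPKM in wild type, 81.8 in tw18/+ and 12.8 in tw18/tw18, the order of the labels, although it was above 0 in the library labelled tw18/tw18. Lars2, the most abundant gene with 11199 in wild type and 9689 in tw18/+, was listed at 0 in tw18/tw18. It made up 2.52% and 2.13% of the FPKM totals, and since FPKM is relative to its library, the globin ratios with equal FPKM sums are given among the alternatives.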

How the data were processed

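RNA was sequenced as 50 bp paired-end reads from 1 library per genotype. Per the labels, the authors aligned to mm10, which is GRCm38, using TopHat2 version 2 and Bowtie 1.0.0, and deposited FPKM values from Cuffdiff (Cufflinks 2.2.1 in the submitters' processing notes). The annotation is not given in the sources used here.

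Ratios were taken without a pseudocount, and changed genes needed an FPKM of at least 1 in the higher library and a log2 ratio of at least 1. Fragments were estimated from the spacing of low FPKM values of genes with 1 transcript, where 84.4% to 87.2% lay within 0.2 of a whole number, after taking 100 bp off the length. Intervals (95%, exact Poisson for sums, Clopper-Pearson for ratios) cover counting error only and treat the estimated fragments as independent counts. PCR copies are not independent molecules, so the intervals may be too narrow even for counting error. Lists were summarised by the median difference of log2(FPKM + 1). Python 3.11.15, numpy 2.4.6, pandas 2.3.3, scipy 1.17.1, matplotlib 3.10.9 and Biopython 1.88 were used.

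Members and lists were chosen with earlier results of these data known. The genes named were all listed globins, other globins and alpha-cluster neighbours, the defining genes of each list with up to 4 further changed genes of the highest FPKM, the 5 genes nearest in pattern, Ppp2r1a and Lars2, and some genes of this rule are not reported here. Pseudocounts of 0.1 and 1, stricter or no filters, a log2 threshold of 2, rescaling to equal FPKM sums, median centring and tw18/+ as reference were tried. Protein identity was not analysed here.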

Additional observations from a re-analysis of the deposited data

How the results depend on the processing

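Between tw18/tw18 and wild type no globin sum changed direction under any alternative run, and the alpha sum fell below a 2-fold difference in 1 of them. With 1 length for both alpha copies, chosen after seeing the data, the log2 ratio was 0.88 for alpha and 1.31 for all copies. That of alpha for tw18/+ was -0.14. This setting rests on the GENCODE M21 lengths, and those that the authors used are not given in the sources used here. With equal FPKM sums the log2 ratio of tw18/tw18 was 1.495 for alpha, 1.75 for beta and 1.655 for all copies, and with Lars2 left out of those sums 1.46, 1.71 and 1.62. Without Hbb-bs, chosen after seeing the data, it was 1.21 for beta and 1.24 for all copies. With Hbb-bs kept and tw18/+ as the reference, it was 1.26 for beta and 1.25 for all copies. Of the globin copies, 2 were counted as higher at a log2 threshold of 2 and 4 with equal FPKM sums, when Hbb-b1 was included. The numbers of all genes higher and lower in tw18/tw18 were 1227 and 532 with a pseudocount of 1, 832 and 382 with an FPKM of at least 5, 4072 and 1825 without a filter, and 744 and 295 at a log2 threshold of 2. For tw18/+ they were 264 and 287, 98 and 143, 2636 and 1656, and 213 and 210. Of the erythroid genes, 1 was higher with an FPKM of at least 5, 13 without a filter, 3 at a log2 threshold of 2 and 8 with equal FPKM sums, while 1 was lower at a threshold of 2. No shares were taken under these settings, so the counts say nothing about erythroid genes in particular. Over all genes, the number higher also rose, from 1946 to 4072 without a filter and 2667 with equal FPKM sums. The genes added without a filter had an FPKM below 1 in both libraries. Of the 5 genes nearest in pattern, 1 was shared on the log2(FPKM + 1) scale. Of 168 counts of the other lists, 127 stayed within 1.5 times and 41 did not. The 127 include every count that was 0 and stayed 0, also for lists in which no gene passed the filter. This split is therefore no measure of how stable the counts are. The embryonic globins were listed at 0, so their alternatives gave no value. No paired analysis was possible because each genotype has 1 library. With 1 library per genotype, the depth limits counting error but not the spread between embryos, which stays unknown.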

Other observations

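Of 8 genes that take up or break down free haemoglobin and haem, all were in the table and 5 passed the filter between tw18/tw18 and wild type. None of the 5 was at least 2-fold higher or lower, against 15.1% and 6.94% of all genes. A count of none among so few does not set these haem genes apart from all genes. Their median difference of log2(FPKM + 1) was 0.51, and their summed FPKM was 58.6 in wild type, 58.1 in tw18/+ and 73.3 in tw18/tw18. Hmox1, which encodes the enzyme that opens the haem ring and is named here after its values were seen, had 22.6, 20.8 and 38.4 FPKM.

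The blood and vessel progenitor genes that changed did not all share a direction. Fli1, a transcription factor of vessels and megakaryocytes, stood at 0.469 FPKM in wild type, 1.02 in tw18/+ and 4.27 in tw18/tw18. Cd34, a surface marker of blood stem cells and vessels, had 3.59, 3.70 and 11.6. Etv2, needed for the first blood and vessel progenitors, had 1.87 and 1.98 and was listed at 0 in tw18/tw18.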
